A study of Mus musculus with 6 samples.

Results

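TGF-beta 1 is a secreted growth factor that megakaryocytes make and store for release by platelets. The expression of 10 mouse genes of its pathway was followed here in megakaryocytes, the cells that release platelets. They were Tgfb1, Ltbp1, Tgfbr1, Tgfbr2, Smad2, Smad3, Smad7, Pmepa1, Skil and Tgif1, chosen by name with earlier results of these arrays known. All 24 probe sets that the platform annotation gave to 1 of these genes alone were used, of 45037 probe sets on the array that were not controls, and 0 further probe sets named a member together with another gene. Of the 24, 18 passed a filter that kept the brighter 50% of probe sets, and 6 did not.

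Megakaryocytes were grown from mouse fetal liver cells with thrombopoietin, the hormone of their lineage, and mature cells were enriched on a gradient of bovine serum albumin. There were 3 arrays from FOG1-/- ki/ki cultures, called FOG1 ki/ki here, and 3 control arrays, of which replicates 1 and 2 were FOG1+/- and replicate 3 was FOG1+/+. All animals had a mixed C57BL/6xSv129 background, and the labels describe neither the knocked-in change nor the age of the fetuses. The product of Zfpm1, FOG1, binds GATA factors and is needed to make megakaryocytes. The comparison asks how transcripts differ in cells with the ki/ki genotype. Samples are labelled as biological replicates, with no word on shared litters or days, so p-values measure the spread between these cultures.

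TGF-beta 1 is made as a precursor, cut by the protease furin, and secreted in a latent complex with a binding protein such as LTBP1. Once released it binds TGFBR2, which recruits and phosphorylates TGFBR1, and this receptor kinase in turn phosphorylates SMAD2 and SMAD3. These enter the nucleus with SMAD4 and switch genes on or off, among them the pathway's own brakes. SMAD7 and PMEPA1 block signalling at the receptors or the receptor-bound SMADs, and SKIL (SnoN) and TGIF1 repress transcription together with the SMADs. Platelets are a main store of TGF-beta 1 in blood, and TGF-beta also restrains the growth of megakaryocytes.

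Tgfb1, Ltbp1, Smad2 and Skil lay near control on their brightest probe sets, and the largest differences were in the feedback genes Pmepa1 and Tgif1. Both, and the receptor gene Tgfbr1, lay lower in FOG1 ki/ki in all 3 pairs of equal replicate number. Pmepa1 and Tgif1 read highest on control replicate 2, and the groups overlapped for both. That array also had the highest summed signals of fibroblast, macrophage and megakaryocyte markers. Among the 18 probe sets tested, 11 lay below control and 7 above, with a median log2 difference of -0.05, against 45.9% below and a median of 0.03 over all 22518 probe sets tested. Differences are FOG1 ki/ki minus control on the log2(signal + 16) scale, which understates the differences of dim probe sets. By limma with a Benjamini-Hochberg adjusted p under 0.05, 0 of the 18 were called, against a background of 0.0666% of all probe sets tested, 0.0355% higher and 0.0311% lower. With the replicate number as a block, 1 of the 18 was called, Pmepa1 probe set 1422706_at (limma adjusted p = 0.0384), against a background of 0.524%, 0.244% higher and 0.28% lower. With a pseudocount of 1 or 64 in place of 16 this call was lost (blocked limma adjusted p = 0.0821 and 0.0925), in fits added after seeing the data. A log2 difference over 0.5 in size was seen for 4 of the 18, against 15.6% of all. The members were chosen with this contrast known, so nothing is read from these counts and their values are given as a description.

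**Figure D1:**
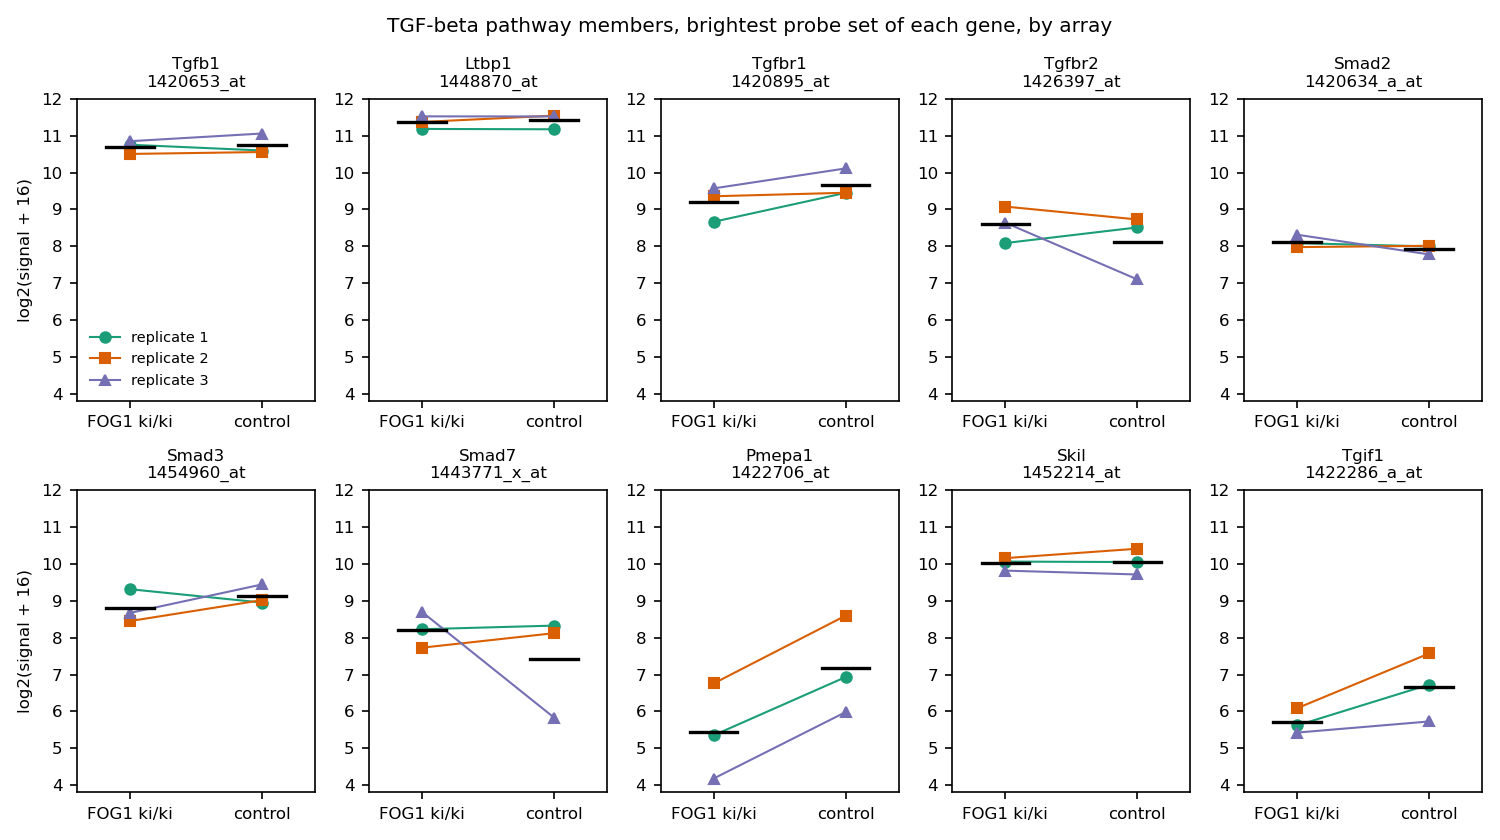
Each panel plots log2(signal + 16) of a member's brightest probe set on the 6 arrays, FOG1 ki/ki left and control right, with lines joining equal replicate numbers and black bars at the group means. Pmepa1, Tgif1 and Tgfbr1 slope the same way in all 3 pairs, while Tgfb1, Ltbp1, Smad2 and Skil differ by 0.20 or less between group means.

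The arrays differed in ways that bear on these values. The median signal was 5.93 to 12.3 in FOG1 ki/ki and 7.75 to 12.2 in control, and the 2% trimmed mean was 150 on every array, so the arrays had been scaled to 1 target. Gapdh 3'/5' ratios, a measure of RNA integrity, averaged 0.74 ± 0.495 in FOG1 ki/ki and 0.67 ± 0.32 in control on the log2 scale (SD, n = 3 each). An exact permutation test, two-sided, gave p = 1, and p = 0.8 for the beta-actin ratio, and no p under 0.1 is possible with 3 arrays against 3. FOG1 ki/ki replicate 3 had the highest ratios, 2.38 for Gapdh and 2.76 for beta-actin, and the lowest median signal. The other arrays reached at most 1.86 and 2.11. The part of this array's RNA quality in the members' differences was not tested. Zfpm1 averaged 874 in FOG1 ki/ki and 810 in control, a log2 difference of 0.11, which does not check the labels because a knocked-in allele can be transcribed. The replicate 1 cultures differed in sex, with the Y-linked Eif2s3y at 1147 in FOG1 ki/ki and 2.50 in control. All 10 measured megakaryocyte markers passed the filter and lay below control, with a median log2 difference of -0.20. Their summed signal was 17258, 19233 and 23222 in FOG1 ki/ki and 19610, 25745 and 25590 in control, lower in each pair. Gp6, the platelet collagen receptor gene, differed by -1.35 (limma adjusted p = 0.392, blocked 0.0439) and the platelet tubulin gene Tubb1 by -1.01 (limma adjusted p = 0.198), while Itga2b differed by -0.07. The part of this shift in the members' differences was not tested.

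Tgfb1 was abundant and alike in both groups. Its brightest probe set, 1420653_at, read 1713, 1438 and 1832 in FOG1 ki/ki replicates 1, 2 and 3, against 1535, 1491 and 2119 in control. The groups overlapped, with the FOG1+/+ array the highest of the 6. The log2 difference was -0.03 (SE 0.19, n = 3 each), and within replicate numbers 1, 2 and 3 it was 0.16, -0.05 and -0.21. A dimmer Tgfb1 probe set, 1445360_at, read 99.5, 65.6 and 11.2 in FOG1 ki/ki and 50.4, 68.8 and 27.5 in control, with a log2 difference of 0.02. Its 2 lowest readings were both from replicate 3, the numbers with the lowest median signals.

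Ltbp1, which holds latent TGF-beta 1 for secretion and storage, read 2311, 2637 and 2933 in FOG1 ki/ki on its brightest probe set, 1448870_at, against 2297, 2974 and 2928 in control. The groups overlapped and the replicate 1 cultures were the lowest of each. The log2 difference was -0.05 (SE 0.16), and the pair differences were 0.01, -0.17 and 0.0025. The dimmer Ltbp1 probe sets 1447547_at and 1419786_at differed by -0.11 and -0.06, each higher in FOG1 ki/ki in pair 1 and lower in pairs 2 and 3. Their signals lay between 24.4 and 70.8 on all arrays.

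The genes nearest to Tgfb1 in pattern over the 6 arrays were named by Euclidean distance between log2 values after each probe set's mean was subtracted. Among 11260 genes they were Nkiras2 (distance 0.08), Atxn7l3 (0.10), Orc4 (0.12), Actr8 (0.12) and Elk4 (0.13), against a median distance of 0.88. Their log2 differences lay between -0.097 and 0.03, and that of Tgfb1 was -0.03.

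The brightest probe sets of the receptor genes differed in opposite directions, and the groups overlapped for both. Tgfbr1, which encodes the type I receptor kinase, read 389, 639 and 744 in FOG1 ki/ki on probe set 1420895_at, against 683, 684 and 1091 in control. It was lower in FOG1 ki/ki in each pair, by a log2 difference of -0.79, -0.10 and -0.54, but FOG1 ki/ki replicate 3 read above 2 of the control arrays. The mean difference was -0.47 (SE 0.35), a level 1.39-fold lower in FOG1 ki/ki. A second probe set, 1420894_at, read 64.6, 88.5 and 2.56 in FOG1 ki/ki and 135, 66.5 and 41.2 in control, with pair differences of -0.91, 0.34 and -1.62. Its direction in pair 2 opposes that of the brighter probe set. Another, 1420893_a_at, was among the 6 below the filter, at 11 or less on all arrays.

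Tgfbr2, which encodes the type II receptor that binds the ligand, read 256, 524 and 382 in FOG1 ki/ki on probe set 1426397_at, against 349, 408 and 121 in control. The lowest value of all was that of the FOG1+/+ array. The log2 difference of 0.49 (SE 0.59) rested on it, since the pair differences were -0.42, 0.35 and 1.54, and without control replicate 3 the difference was -0.02. Of the dim Tgfbr2 probe sets, 1425444_a_at read 6.60, 5.80 and 6.51 in FOG1 ki/ki and 3.2, 1.4 and 0.87 in control. It was the only 1 of the 24 probe sets whose groups did not overlap, against 9.26% of all 45037 probe sets, and its signals were below the array's median signal on every array except FOG1 ki/ki replicate 3. The third, 1422019_at, did not exceed 2.70 on any array.

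**Figure D2:**
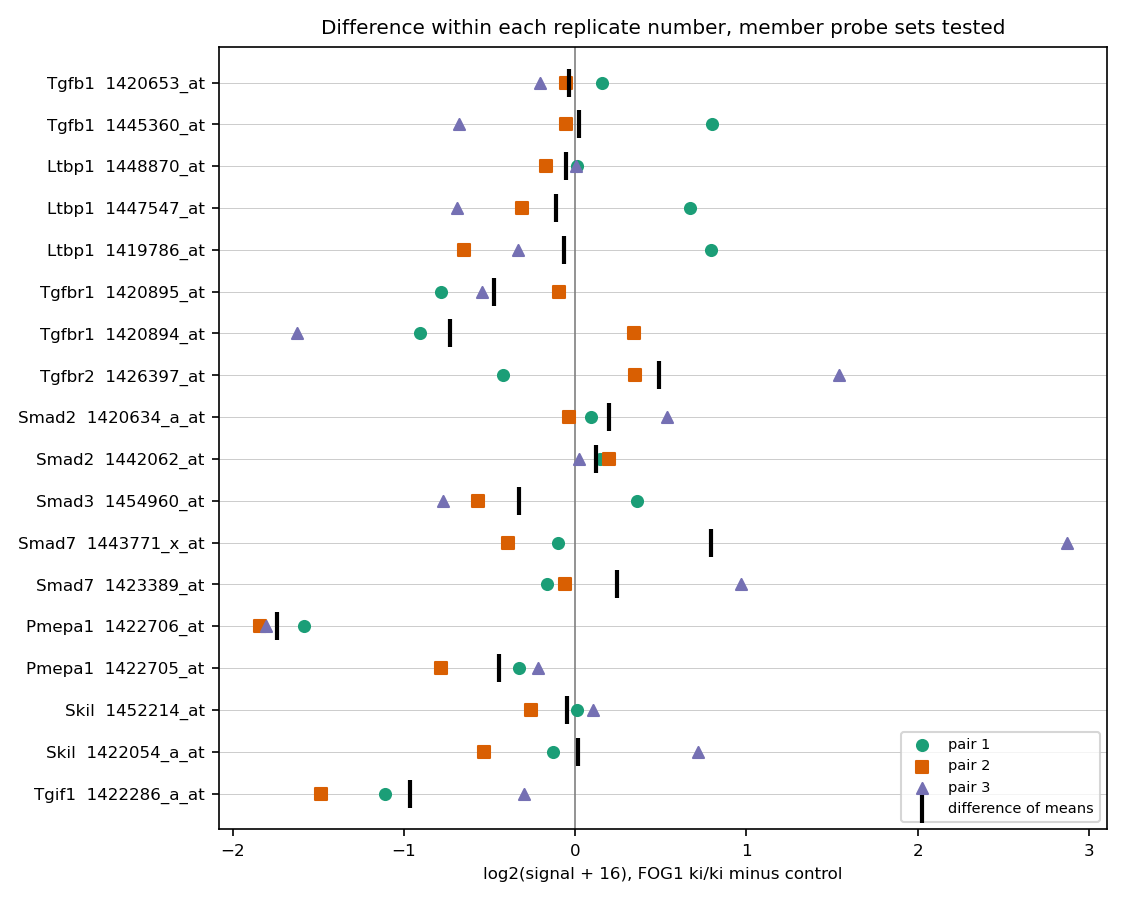
The log2(signal + 16) difference, FOG1 ki/ki minus control, is plotted for the 18 member probe sets tested, with coloured points for pairs 1, 2 and 3 and a black bar for the difference of group means. Both Pmepa1 rows, Tgif1 and Tgfbr1 probe set 1420895_at lie left of 0 in all 3 pairs, while the Smad7 and Tgfbr2 means are set by pair 3.

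Smad2 and Smad3 encode the receptor-activated SMADs of TGF-beta and activin signalling. Smad2 read 255, 236 and 302 in FOG1 ki/ki on probe set 1420634_a_at, against 239, 242 and 203 in control, a log2 difference of 0.20 (SE 0.12). Its groups overlapped, with FOG1 ki/ki replicate 3 the highest and the FOG1+/+ array the lowest. A second Smad2 probe set, 1442062_at, lay between 30.9 and 43.7 on all arrays, with a log2 difference of 0.12. In group means Smad2 was thus within 0.20 of control on both of its probe sets. On 1420634_a_at the pair differences were 0.09, -0.04 and 0.54, and without both arrays numbered 3 the difference was 0.03.

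Smad3 read 622, 335 and 392 in FOG1 ki/ki on probe set 1454960_at, against 480.1, 504 and 682 in control. FOG1 ki/ki was higher in pair 1 and lower in pairs 2 and 3, with log2 differences of 0.36, -0.57 and -0.77 and a mean of -0.33 (SE 0.30). The other Smad3 probe sets, 1450472_s_at and 1450471_at, stayed at 14.9 or less and were below the filter. Smad4, the shared partner of both and not among the 10 genes, had a log2 difference of -0.09.

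Smad7 encodes the inhibitory SMAD that binds activated receptors and is itself a target gene of the pathway. Its probe set 1443771_x_at read 284, 196 and 401 in FOG1 ki/ki, against 306, 263 and 41.0 in control. A second probe set, 1423389_at, read 279, 238 and 101 in FOG1 ki/ki and 315, 249 and 43.7 in control. On both, the FOG1+/+ array was the lowest of the 6, and in pairs 1 and 2 the log2 difference lay between -0.39 and -0.06. The log2 differences were 0.79 (SE 0.85) and 0.25 (SE 0.88), and without control replicate 3 they were -0.0050 and -0.52. The probe sets disagreed on FOG1 ki/ki replicate 3, which was the highest array on the first and the lowest of its group on the second. A probe set name ending in _x_at marks probes that may bind other transcripts.

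Pmepa1 encodes a membrane protein that keeps SMAD2 and SMAD3 from the receptor and is induced by TGF-beta. Its brightest probe set, 1422706_at, read 24.8, 92.2 and 2.08 in FOG1 ki/ki replicates 1, 2 and 3, against 106, 372 and 47.2 in control. Each FOG1 ki/ki array read below the control array of its number, and replicate 2 was the highest in both groups. The groups overlapped, because FOG1 ki/ki replicate 2 exceeded control replicate 3. The log2 difference was -1.74 (SE 1.07), a level 3.35-fold lower in FOG1 ki/ki on the signal + 16 scale, and the pair differences were -1.58, -1.84 and -1.81, with an SD of 0.14.

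FOG1 ki/ki replicate 3 read below its array's median of 5.93 and far below the pseudocount, so the size of pair 3, and how closely the pairs agreed, depended on the pseudocount. With a pseudocount of 1 the pair differences were -2.06, -2.00 and -3.97 (SD 1.12), and with 64 they were -0.94, -1.48 and -0.75 (SD 0.38). The mean difference was -2.67 with 1 and -1.06 with 64. A second Pmepa1 probe set, 1422705_at, read 10.5, 8.0 and 4.35 in FOG1 ki/ki and 17.3, 25.4 and 7.69 in control. It was lower in FOG1 ki/ki in all 3 pairs, by -0.33, -0.79 and -0.22. The third, 1452295_at, was below the filter, with 0.40, 4.40 and 0.14 in FOG1 ki/ki and 3.10, 9.80 and 1.42 in control, again lower in each pair. The 3 Pmepa1 probe sets thus went the same way in all pairs, although dim ones add little. Of all 22518 probe sets tested, 18.1% lay lower in all 3 pairs, as did 4 of the 18 of the members, and 22.2% lay higher in all 3 pairs, as did 1 of the 18, Smad2 probe set 1442062_at.

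Tgif1 encodes a homeodomain protein that represses transcription with SMAD2. Its single probe set, 1422286_a_at, read 33.1, 51.9 and 26.9 in FOG1 ki/ki, against 90.0, 174 and 37.0 in control. FOG1 ki/ki was lower in each pair, by -1.11, -1.49 and -0.30, and only FOG1 ki/ki replicate 2 exceeded a control array, the FOG1+/+ one. The mean log2 difference was -0.97 (SE 0.57), a level 1.95-fold lower in FOG1 ki/ki.

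Skil, which encodes a SMAD corepressor that is degraded and then induced again on TGF-beta signalling, was close to control. Its probe set 1452214_at read 1057, 1129 and 889 in FOG1 ki/ki and 1048, 1351 and 826 in control, with a log2 difference of -0.05 (SE 0.23). The highest array was control replicate 2 and the lowest the FOG1+/+ array, so the groups overlapped. The dim probe set 1422054_a_at differed by 0.02, with pair differences of -0.13, -0.53 and 0.72.

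The control group pools 2 genotypes, whose levels are given side by side for the feedback genes, with no test. Pmepa1 averaged 5.43 in FOG1 ki/ki, 7.77 in FOG1+/- (n = 2) and 5.98 on the FOG1+/+ array on the log2 scale, and Tgif1 averaged 5.71, 7.15 and 5.73 in that order. Smad7 probe set 1423389_at averaged 7.69 in FOG1 ki/ki, 8.21 in FOG1+/- and 5.90 on the FOG1+/+ array. FOG1 ki/ki and the FOG1+/+ array were neighbours in the order for Pmepa1 and Tgif1 and lay within the spread of the FOG1 ki/ki arrays, whose SDs were 1.29 and 0.34. The FOG1+/+ genotype has 1 array, which is also the only control numbered 3, so genotype and replicate number cannot be told apart.

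Signals of other cell types also differed between the groups, and the fibroblast signal had the array order of Pmepa1 and Tgif1 only within each group. Of 11 fibroblast markers 10 lay below control, and their summed signal was 1020, 2825 and 156 in FOG1 ki/ki replicates 1, 2 and 3, against 1529, 6922 and 219 in control. Within each group the order of the arrays, replicate 2, then 1, then 3, was that of Pmepa1 and Tgif1. As ratios of signal with no pseudocount, the fibroblast sum was 1.5-, 2.45- and 1.4-fold lower in FOG1 ki/ki in pairs 1, 2 and 3. On the same scale Pmepa1 was 4.28-, 4.04- and 22.7-fold lower, the last against the reading of 2.08, and Tgif1 2.72-, 3.36- and 1.37-fold lower. In pair 3, the collagen genes Col1a1 and Col1a2 read 25.8 and 47.5 in FOG1 ki/ki and 66.1 and 53.7 in control, and Lum and Postn lay under 8 on both arrays.

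Monocyte and macrophage markers, of which 13 of 13 tested lay below control, summed to 4007, 11041 and 7583 in FOG1 ki/ki and 10833, 14349 and 8360 in control. In FOG1 ki/ki their lowest sum was in replicate 1, whereas Pmepa1 and Tgif1 were lowest in replicate 3. In this list Timd4 stayed at 9.80 or less on all arrays. The part that fibroblasts, macrophages or RNA quality had in the Pmepa1 and Tgif1 differences was not tested. In bulk samples, fewer cells of a type and less RNA per cell cannot be told apart. Mast cell and basophil markers went the other way, with 8 of 8 tested above control. Their summed signal was 6776, 6436 and 6250 in FOG1 ki/ki and 3334, 3248 and 252 in control. The lowest sum was on the FOG1+/+ array, which also read lowest on the brightest Smad7 and Tgfbr2 probe sets. A link between these was not tested. Of 6 endothelial markers tested 3 lay below control and 3 above.

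**Figure D3:**
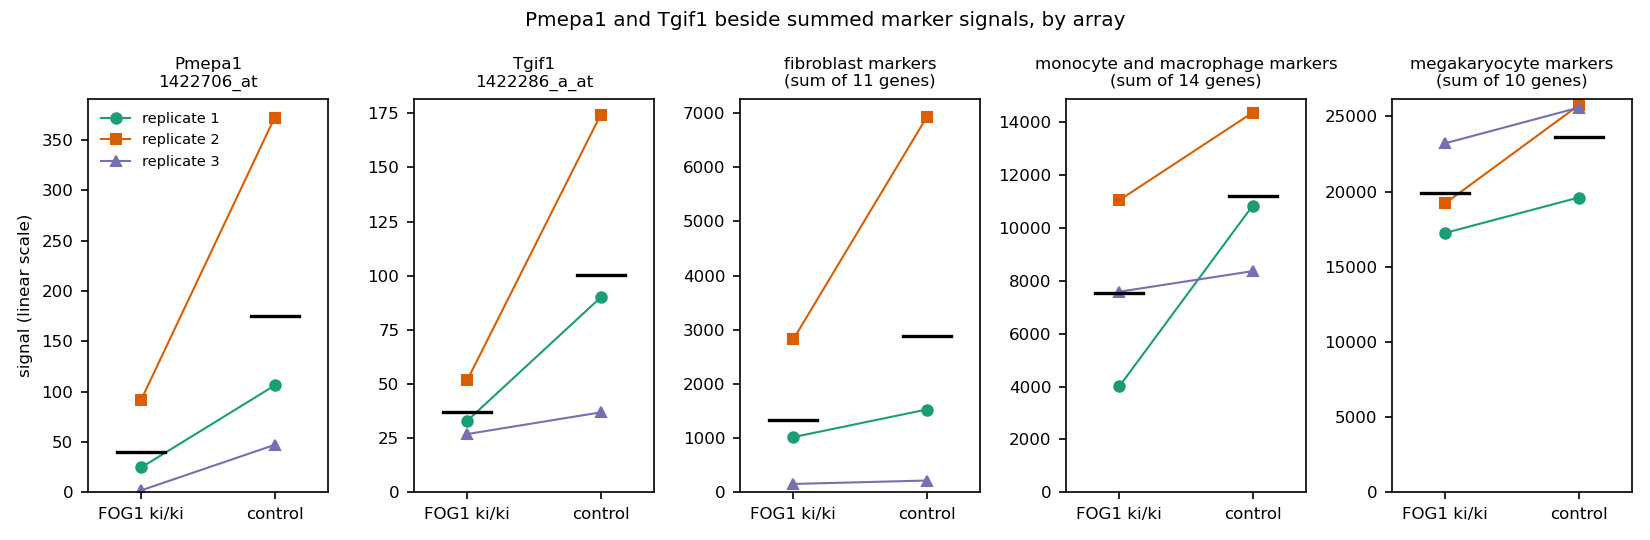
Signals on a linear scale are plotted for Pmepa1, Tgif1 and the summed fibroblast, macrophage and megakaryocyte markers, FOG1 ki/ki left and control right, with lines joining equal replicate numbers and black bars at the means. Control replicate 2 is the highest array in all 5 panels, and the fibroblast sums of both replicate 3 arrays, 156 and 219, are the lowest of the 6.

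By the same distance measure, the genes nearest to Pmepa1 were Thbs2 (distance 0.25), Gstt1 (0.40), Jag1 (0.66), Rnase4 (0.75) and Palld (1.02), against a median of 3.45 over 11260 genes. Their log2 differences were -1.55, -1.91, -1.31, -1.32 and -1.16, and all 5 were lower in FOG1 ki/ki in all 3 pairs. This follows from how they were chosen, as they are the genes that share the pattern of Pmepa1.

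Promoter sequences from RefSeq (GRCm38.p6) matched 6 of the 10 genes, with 12 windows of the 250 bases before an annotated start. They were searched on both strands for the Smad-binding core CAGAC and for 4 spellings of the GATA site. One spelling was AGATAA. Another, with a different opening base, was TGATAA. The spellings that end in G were AGATAG and, with the other opening base, TGATAG. No window held both a core and a GATA site. The core was found in 7 of the 12 windows, from 4 genes, and in 42.2% of 32851 promoter windows of all genes. A GATA site was found in 1 of the 12, against 26.5% of all windows. Shown are the Tgif1 window with 2 cores, since Tgif1 lay lower in each pair, the Tgif1 window with the GATA site, and the windows of the ligand Tgfb1, with neither, and of Tgfbr2, with 1 core. Capitals mark the matches, all sequences run 5' to 3' on the gene's strand, and the minus-strand genes Tgif1 and Tgfbr2 are given as read on that strand.
Tgif1, chr17:70851735-70851984, minus strand: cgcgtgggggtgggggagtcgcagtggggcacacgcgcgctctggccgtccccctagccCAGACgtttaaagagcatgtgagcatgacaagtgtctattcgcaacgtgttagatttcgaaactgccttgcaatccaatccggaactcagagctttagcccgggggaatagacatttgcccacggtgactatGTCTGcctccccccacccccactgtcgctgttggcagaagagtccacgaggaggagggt
Tgif1, chr17:70846778-70847027, minus strand: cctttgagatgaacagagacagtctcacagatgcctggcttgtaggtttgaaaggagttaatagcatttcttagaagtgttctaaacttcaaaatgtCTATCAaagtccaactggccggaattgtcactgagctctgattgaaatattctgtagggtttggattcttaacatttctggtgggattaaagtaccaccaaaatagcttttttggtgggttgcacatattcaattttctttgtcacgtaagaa
Tgfb1, chr7:25686752-25687001, plus strand: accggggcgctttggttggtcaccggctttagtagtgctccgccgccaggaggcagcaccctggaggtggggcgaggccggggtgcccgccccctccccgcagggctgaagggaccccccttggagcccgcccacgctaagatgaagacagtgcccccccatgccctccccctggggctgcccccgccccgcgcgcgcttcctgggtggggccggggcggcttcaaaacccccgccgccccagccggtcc
Tgfbr2, chr9:116175364-116175613, minus strand: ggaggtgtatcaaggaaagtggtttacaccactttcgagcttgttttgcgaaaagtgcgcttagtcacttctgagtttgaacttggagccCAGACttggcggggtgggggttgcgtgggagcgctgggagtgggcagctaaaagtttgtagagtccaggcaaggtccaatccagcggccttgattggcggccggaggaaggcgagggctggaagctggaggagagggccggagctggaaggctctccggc
A match is only a run of letters in a window. The core is found in the windows of genes near control, such as Ltbp1, as well as in those of Tgif1, and these arrays measured no binding.

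Other genes of the pathway were taken from 6 lists by role, each gene by its brightest probe set. Of 60 genes listed 57 had a probe set and 45 were tested, of which 31 lay below control and 14 above, with a median log2 difference of -0.21. Over all probe sets tested 45.9% lay below control, with a median of 0.03. By limma 0 of the 45 passed at an adjusted p under 0.05, against 0.151% of 11260 genes taken by 1 probe set each. An unadjusted p under 0.05 was seen for 9 genes, and for 1315 of 22518 probe sets. With the replicate block 1 gene passed, Furin, and 3 of the 90 pathway probe sets tested, against 0.524% of all probe sets, and 17 genes reached an unadjusted p under 0.05, as did 3364 probe sets overall. The groups did not overlap for 10 of the 45 genes, 8 lower and 2 higher, against 10.2% of the probe sets tested, 4.9% lower.

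Among 10 measured genes of TGF-beta storage and activation, 7 were tested. Furin, which cuts the TGF-beta precursor, read 1329, 1406 and 2292 in FOG1 ki/ki and 630.2, 823 and 1366 in control. Its log2 difference was 0.85 (SE 0.31, limma adjusted p = 0.686). In the blocked fit Furin was higher and passed (limma adjusted p = 0.0461), at 1.06, 0.76 and 0.74 in the pairs. With a pseudocount of 1 or 64 its difference was 0.86 and 0.82 but did not pass (blocked limma adjusted p = 0.053 and 0.0564). Thbs1, the platelet granule protein thrombospondin 1, which can activate latent TGF-beta, read 725, 789 and 299.6 in FOG1 ki/ki, against 1240.5, 1579.5 and 1633 in control. All control arrays lay above all FOG1 ki/ki arrays, with a log2 difference of -1.38 (limma adjusted p = 0.335, blocked 0.129), and a dimmer probe set differed by -2.82. Ltbp2, a matrix protein of the LTBP family, read 19.4, 64.1 and 1.99 in FOG1 ki/ki and 71.3, 378 and 160.5 in control. Its log2 difference of -2.30 did not pass (adjusted p = 0.464, blocked 0.0756). Mmp14, a membrane metalloproteinase, differed by -0.70 (adjusted p = 1).

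Other ligands were dim. Of 7 genes 3 were tested, with Tgfb2 at -0.74, the activin subunit genes Inhba at -0.65 and Inhbb at -0.23, and limma adjusted p = 1 for each. Tgfb2 and Inhba read highest on control replicate 2, at 87.3 and 161, and under 2 on both replicate 3 arrays. Without control replicate 2, and with FOG1 ki/ki replicate 2 kept, they were at -0.16 and 0.25. The pair differences were -0.95, -1.22 and -0.06 for Tgfb2, and -0.47, -1.49 and 0.0094 for Inhba. Among 5 receptor genes tested, the activin type I receptor gene Acvr1b read 568, 537 and 627 in FOG1 ki/ki and 374, 439 and 261 in control. Its groups did not overlap, and its log2 difference of 0.69 did not pass (limma adjusted p = 0.62, blocked 0.202). The co-receptor genes Tgfbr3 and Eng differed by -0.63 and 0.25, and the type I receptor gene Acvrl1 by -0.35. Of the 6 SMAD partners tested, Smad4 differed by -0.09 and the coactivator genes Ep300 and Crebbp by 0.07 and 0.03. The SMAD anchor gene Zfyve9, at -0.39, was lower in each pair, by -0.06, -0.64 and -0.45. Without control replicate 2, and with FOG1 ki/ki replicate 2 kept, it was at -0.01.

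Among 12 inhibitors tested, 7 lay below control and 5 above. Nedd4l, which encodes a ubiquitin ligase that marks activated SMAD2 and SMAD3 for degradation, read 749.8, 988 and 987 in FOG1 ki/ki, against 334, 490.2 and 274 in control. Its log2 difference was 1.30 (SE 0.25, limma adjusted p = 0.187, blocked 0.0555), and each of the 3 tested of its 6 probe sets was higher in FOG1 ki/ki with no overlap. Bambi, a decoy receptor, differed by -1.07 (adjusted p = 0.567, blocked 0.0986), from signals of 9.50, 35.4 and 10.4 in FOG1 ki/ki and 45.2, 71.5 and 44.4 in control. The ubiquitin ligase genes Smurf1 and Smurf2, whose products pair with SMAD7, differed by -0.54 and -0.69 and did not pass (adjusted p = 1 and 0.845). Their groups did not overlap on the brightest probe set of each.

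Known target genes of TGF-beta lay mostly below control, 11 of 12 tested, with a median log2 difference of -0.62. Of all probe sets tested 45.9% lay below control. Marker lists were as one-sided, with 10 of 10 megakaryocyte, 13 of 13 macrophage and 10 of 11 fibroblast markers tested below control, against 0 of 8 mast cell and basophil markers. Gadd45b, a stress gene that SMADs induce, read 74.1, 93.4 and 29.9 in FOG1 ki/ki on its brightest probe set, 1420197_at, against 630.3, 834 and 105 in control. Its log2 difference was -2.40 (SE 0.72, limma adjusted p = 0.472, blocked 0.0556), and the other Gadd45b probe sets, 1450971_at and 1449773_s_at, differed by -2.29 each and fell with the block (limma adjusted p = 0.0218 and 0.0472). In fits added after seeing the data, all 3 passed with a pseudocount of 1 (blocked limma adjusted p = 0.0457 for 1420197_at, 0.0227 for 1450971_at and 0.0344 for 1449773_s_at). With 64 none passed (blocked limma adjusted p = 0.0999, 0.0556 and 0.0981 in that order). Tsc22d1, a leucine zipper gene induced by TGF-beta, read 1507, 1994 and 1878 in FOG1 ki/ki and 2541, 3702 and 2525 in control. Its log2 difference was -0.69 (limma adjusted p = 0.372, blocked 0.071), and 1 of its 5 tested probe sets, a dim one, lay above control at 0.47. Snai2 differed by -1.05 and Cdkn2b by -0.56 (limma adjusted p = 1 for both). Without control replicate 2, where Snai2 read 253.5, they were at -0.0027 and -0.22, with FOG1 ki/ki replicate 2 kept. In pairs 1, 2 and 3 Snai2 differed by -0.91, -2.02 and -0.21, and Cdkn2b by 0.58, -1.82 and -0.43.

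The medians of the target list were -0.68, -0.75 and -0.18 in pairs 1, 2 and 3. Fibroblast markers had medians of -0.45, -1.19 and -0.13 in the same pairs, and several targets, such as Fn1 (-0.74), Tgfbi (-0.77) and Ccn2 (-1.0), named after their values were seen, are matrix genes that fibroblasts also express. Their part in the target list's median was not tested.

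**Figure D4:**
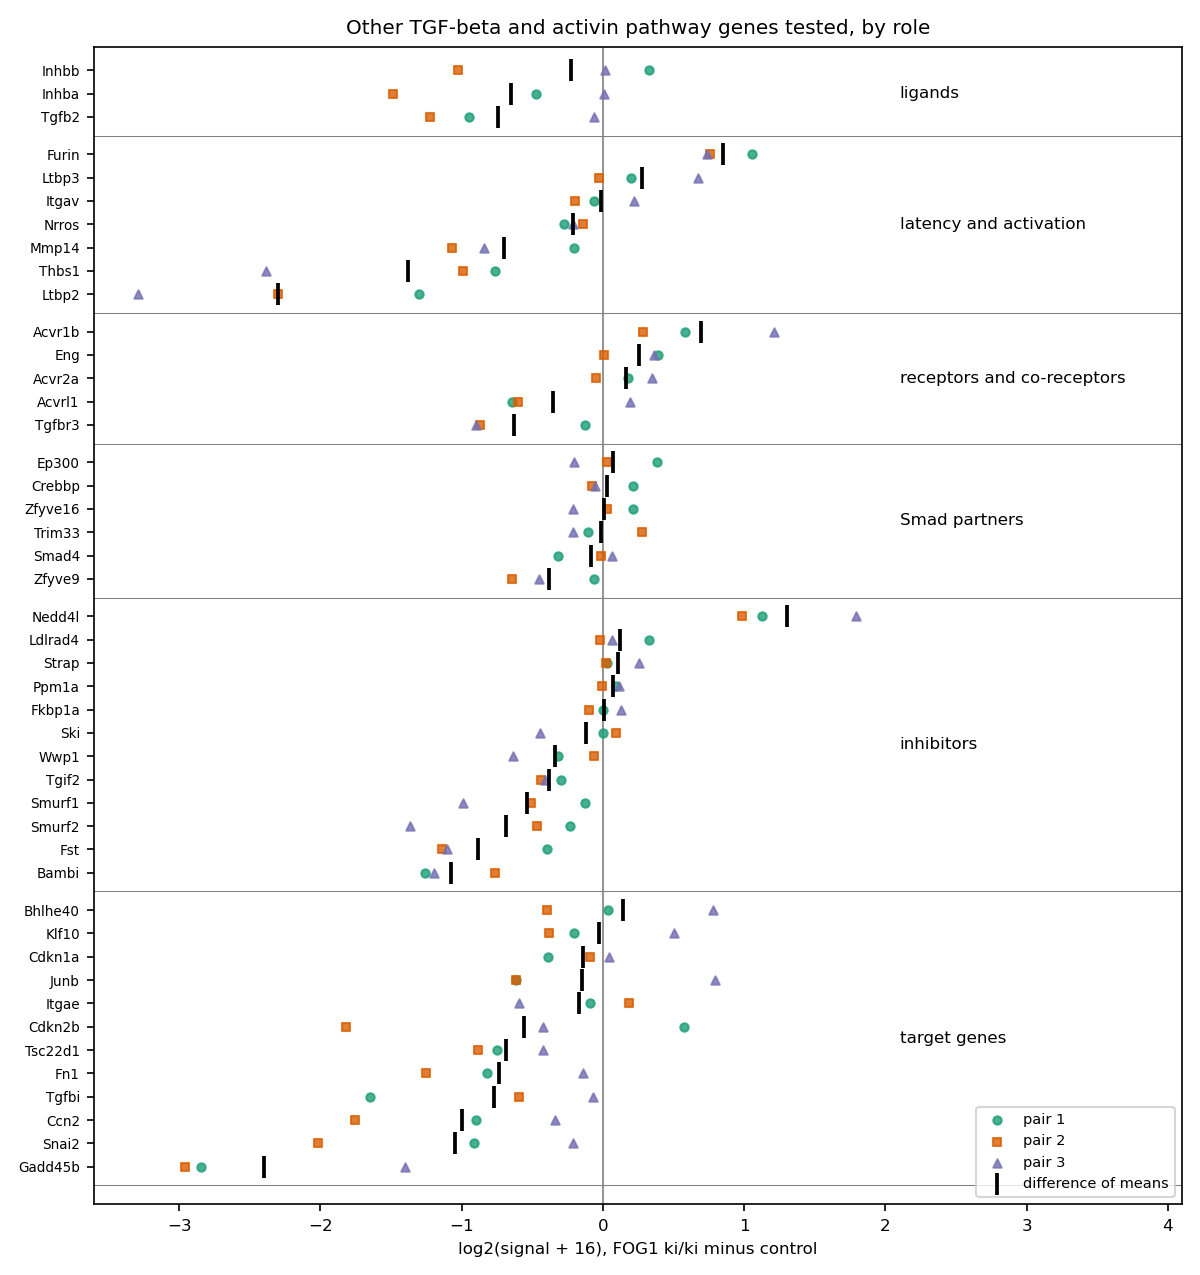
The log2(signal + 16) difference, FOG1 ki/ki minus control, is plotted for the 45 other pathway genes tested, grouped by role, with coloured points for the 3 pairs and a black bar for the difference of group means. Gadd45b, Ltbp2, Thbs1 and Bambi lie left of 0 and Furin, Nedd4l and Acvr1b right of 0 in all 3 pairs, while the SMAD partners other than Zfyve9 have means within 0.09 of 0.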

How the data were processed

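Transcript signals of 6 megakaryocyte arrays were analysed, 3 FOG1 ki/ki and 3 control. The authors deposited 1 linear intensity for each probe set and array. MAS5 is named, without a version, per the submitters' processing notes. RNA was amplified and labelled with NuGEN kits, per the labels' protocols, and precision is limited by having 6 arrays. Of 45101 probe sets 64 controls were left out. Genes came from GEO's platform annotation, in which 34945 probe sets had 1 symbol, 932 several and 9160 none, and all 24 member probe sets matched RefSeq (GRCm38.p6) by Entrez identifier.

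Intensities were analysed as log2(signal + 16) by lmFit and trended eBayes (limma 3.58.1, R 4.3.3), Benjamini-Hochberg adjustment and a threshold of 0.05, over the 22518 probe sets above the median level. The fits were tested on simulated data with no replicate effect, so the block was not tried on paired data. SE values of members come from the arrays' own spread, those of other genes from limma. After subtracting group means, same-numbered arrays correlated at 0.438, 0.648 and 0.597 across probe sets, and differently numbered arrays at 0.0229 or less. The subtraction itself lowers the latter where the former are positive, so the low values are no separate support. The numbers were read as pairs. The labels do not say what the numbers share. The main fit has no block, and blocked values are given where they matter. Tables and figures used Python 3.11.15 (scipy 1.17.1, matplotlib 3.10.9, pandas 2.3.3, numpy 2.4.6).

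Members, gene lists, marker lists, settings and the naming rule were chosen with earlier results of these data known. The rule named every member probe set, all pathway genes past the test or otherwise up to 4 per list by unadjusted p, and the 5 genes nearest in pattern to Tgfb1 and to the member with the largest difference.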

Additional observations from a re-analysis of the deposited data

How the results depend on the processing

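The settings varied were the pseudocount, quantile normalization, median centring, the filter on dim probe sets, 1 probe set per gene, eBayes without a trend, the replicate block, and leaving out each array or each pair. Of 18 alternatives, 5 change the test and not a difference of means. In the 13 that can move it, Pmepa1 (1422706_at), Tgif1, Tgfbr1 (1420895_at) and Smad3 (1454960_at) stayed below control. With 1 array left out Pmepa1 ranged from -2.41 to -1.03, Tgif1 from -1.44 to -0.52, and Tgfbr2 (1426397_at) from -0.02 to 0.80. The median over the members' brightest probe sets ranged from -0.14 to -0.057 with 1 array left out, lowest without control replicate 1. The count of probe sets called, 15, became 24 with quantile normalization, 1 with no filter, 1 in the brightest 25%, and 118 with the replicate block. With the block and a pseudocount of 1 or 64, settings chosen after seeing the data, it was 88 and 71. The count was 0 to 3 with 1 array left out (1 when FOG1 ki/ki replicate 1 was left out, 3 for control replicate 1, 2 for control replicate 3, and 0 for the others), and 0 without both arrays numbered 1, 2 or 3. The count of pathway genes called, 0, became 1 with the replicate block, and the block changed no other call of these genes by their brightest probe sets. Some pathway genes changed sign, Cdkn2b and Inhba with differences of -0.56 and -0.65 among them. Without both arrays numbered 2, Cdkn2b was at 0.075 and Inhbb at 0.17, while Inhba stayed below control at -0.23. Without both arrays numbered 1, Crebbp was at -0.067, Ep300 at -0.088 and Smad4 at 0.028. With 1 array left out, Crebbp ranged from -0.13 (lowest without control replicate 1) to 0.12, Ep300 from -0.16 to 0.25, Inhba from -1.43 to 0.25 and Inhbb from -0.62 to 0.21 (both highest without control replicate 2), and Smad4 from -0.22 to 0.0060. The cause was not tested. For signals near or below the pseudocount of 16, the pseudocount sets much of a difference's size: Pmepa1 (1422706_at) was at -2.67 with 1 and -1.06 with 64.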
